A study of Homo sapiens with 6 samples.

Results

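EDEM1, CALR and HYOU1 were followed in LX-2 cells, a human line of hepatic stellate cells, the main source of collagen in a scarring liver. They are 3 of the 1443 genes that could be tested in a reading of the count tables from the strand opposite to each gene, described next, and 3 of 119 listed genes of folding and quality control in the endoplasmic reticulum (ER). The cells, all of genotype WT, had received FEBJ, cynaroside or DMSO for 24 h. FEBJ is a mixture, extracted from the fruit of Brucea javanica, and cynaroside is a pure flavonoid, luteolin bound to glucose. There were 2 libraries of total RNA per group, no doses are given, and LX-2 is a single immortalised line. Whether libraries of the same group are separate cultures is not stated, so p-values rest only on the spread between these libraries, which may be technical. The test pools this spread over genes, so a very small p-value does not measure the spread of its own gene.

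Proteins that enter the ER are folded there by chaperones, and those that fail to fold are drawn back into the cytosol and degraded. HYOU1, also called GRP170, is a large relative of Hsp70 that exchanges nucleotide on the chaperone BiP and holds unfolded chains. CALR, calreticulin, is a calcium-binding lectin that holds glycoproteins while they fold, and EDEM1 passes terminally misfolded glycoproteins on to ER-associated degradation. Genes of this group are classical targets of the unfolded protein response, in which the sensors IRE1, PERK and ATF6 raise the folding capacity of the ER, and stellate cells rely on it to secrete collagen.

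In these tables the rows of the 3 genes held few counts beside a non-coding row on the other strand, and each gene was read from that row. EDEM1 (ENSG00000134109, chromosome 3, plus strand) was read from ENSG00000268509, an antisense row with 1 exon of 1127 bp. Of these, 653 bp lie opposite the start of EDEM1, 516 of them in its coding sequence, and 474 bp lie upstream of the gene. CALR (ENSG00000179218, chromosome 19, plus strand) was read from ENSG00000267458, with 2 exons whose 270 bp all lie opposite exon sequence of CALR outside the coding part. HYOU1 (ENSG00000149428, chromosome 11, minus strand) was read from ENSG00000255114, with 2 exons and 666 of 667 bp opposite the far end of HYOU1, 661 of them outside the coding part. These rows face 9.66% of the exon bases of EDEM1, 9.95% of those of CALR and 8.66% of those of HYOU1, so each level rests on a short part of its gene. The strand setting of the counting was not stated. Reads of the gene and reads of an antisense RNA therefore cannot be told apart, and values are given as those of the opposite row.

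The promoters are shown because these genes are known targets of ER stress factors and the EDEM1 row runs across all 300 bases of its promoter window. All 3 genes matched, and each sequence is from RefSeq on GRCh38.p14, 250 bases before to 50 bases after the start of the gene, 5′ to 3′ on the strand of the gene. Capitals mark matches to 3 motifs searched on both strands, namely the ER stress response element ERSE (CCAAT, 9 bases of any kind, then CCACG), ERSE-II (ATTGG, 1 base of any kind, then CCACG) and the unfolded protein response element UPRE (TGACGTGG). The windows are chr3:5187457-5187756 on the plus strand for EDEM1, chr19:12938359-12938658 on the plus strand for CALR and chr11:119057156-119057455 on the minus strand for HYOU1.
EDEM1: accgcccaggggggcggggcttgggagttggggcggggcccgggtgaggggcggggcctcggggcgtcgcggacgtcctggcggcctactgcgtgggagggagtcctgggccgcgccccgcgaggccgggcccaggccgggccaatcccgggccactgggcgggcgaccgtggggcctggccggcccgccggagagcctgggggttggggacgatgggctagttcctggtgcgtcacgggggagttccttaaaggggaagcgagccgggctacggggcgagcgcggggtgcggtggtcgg
CALR: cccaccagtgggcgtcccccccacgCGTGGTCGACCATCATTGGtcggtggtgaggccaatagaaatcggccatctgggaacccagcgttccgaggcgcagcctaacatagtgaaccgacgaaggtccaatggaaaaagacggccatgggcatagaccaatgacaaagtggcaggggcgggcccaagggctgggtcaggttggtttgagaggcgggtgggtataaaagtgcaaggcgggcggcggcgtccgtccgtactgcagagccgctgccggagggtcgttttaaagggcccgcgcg
HYOU1: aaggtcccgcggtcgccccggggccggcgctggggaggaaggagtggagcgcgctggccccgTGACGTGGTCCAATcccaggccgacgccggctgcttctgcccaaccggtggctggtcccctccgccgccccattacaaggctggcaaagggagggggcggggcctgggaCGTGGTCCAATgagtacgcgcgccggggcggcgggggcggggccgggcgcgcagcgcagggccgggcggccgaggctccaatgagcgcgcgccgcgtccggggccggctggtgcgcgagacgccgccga
The CALR window held 1 match to ERSE on the reverse strand, from 225 to 207 bases before the start. The HYOU1 window held 2 matches to ERSE-II on the reverse strand, from 185 to 175 and from 79 to 69 bases before the start. It also held 1 match to UPRE, from 188 to 181 bases before the start, which overlaps the farther ERSE-II match. No match to these letters lay in the EDEM1 window. Among 35116 promoter windows of this length, 0.0769% held ERSE, 0.0541% held ERSE-II and 0.729% held UPRE. Among the listed ER genes, 104 had a window, and 20 of them (19.2%) held at least 1 of the 3 motifs, beside 1.08% of all genes.

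The libraries held 1599000 to 4709317 counts in gene rows. The opposite-strand reading sums the non-coding rows that face a single gene, and held 36.9 to 42.9% of the gene-row counts of a library. LX-2 was checked against stellate markers. In the rows as deposited, 9 of 11 markers had counts, while COL1A2 and DES were at 0 in all libraries, and 5 of the 11 had counts in opposite rows. There VIM held 68238 and 95756 counts after FEBJ, 66830 and 195788 after cynaroside and 124589 and 181211 in DMSO. SPARC held 32 and 54 counts after FEBJ, 284 and 850 after cynaroside and 574 and 860 in DMSO. THY1 held 564 and 745 counts after FEBJ, 650 and 1966 after cynaroside and 855 and 1261 in DMSO, and ACTA2 held 315 and 426, 326 and 1179, and 276 and 387 counts in the same order of groups. DES held 0 to 6 counts per library. These counts are not scaled to depth, and those of SPARC after FEBJ lay below those of every other library. As deposited, the 11 markers summed to 392 to 579 counts after FEBJ, 352 to 783 after cynaroside and 2360 to 3432 in DMSO. Most DMSO counts were in VIM (1075 and 1455, against 120 and 155 after FEBJ) and COL1A1 (783 and 1276, against 6 and 10). LOX went the other way, with 215 and 353 counts after FEBJ and 93 and 108 in DMSO, and held most of the FEBJ sum. The hepatocyte markers ALB, TTR and FGB, the macrophage markers CD163 and PTPRC, the endothelial markers PECAM1, CDH5 and VWF and the epithelial markers EPCAM and KRT19 were at 0 in every library. The 8 hepatocyte markers summed to 34 to 43 counts after FEBJ (27 and 37 of them SERPINA1), 0 to 8 after cynaroside and 2 in each DMSO library. The 6 macrophage markers summed to 25 to 43, 10 to 17 and 8 to 11 counts, in the same order of groups. The 7 endothelial markers summed to 426 to 563 counts after FEBJ, 247 to 702 after cynaroside and 354 to 527 in DMSO, and the 7 epithelial markers to 3874 to 5373, 968 to 2675 and 4578 to 6686 counts. Most endothelial counts were in STAB1, with 415 and 545 after FEBJ, 237 and 671 after cynaroside and 350 and 516 in DMSO. Most epithelial counts were in KRT8, with 3553 and 5037, 835 and 2291, and 4234 and 6170 in the same order. The opposite row of the keratin KRT7 held 1051 and 1243 counts after FEBJ, 62 and 110 after cynaroside and 164 and 222 in DMSO. The part of these differences in the results was not tested. In such bulk samples fewer cells of a type and less RNA per cell cannot be told apart.

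The opposite rows of all 3 genes were lower after FEBJ than in DMSO. The opposite row of EDEM1 had 51.1 and 54.2 CPM (counts per 1000000 of the scaled library size of the reading) after FEBJ, against 296 and 327 CPM in DMSO. It rested on 52 and 77 counts after FEBJ and 291 and 469 counts in DMSO. The groups were far apart, and EDEM1 fell 5.91-fold (log2 fold change -2.56 ± 0.18 SE, adjusted p = 7.43e-46, quasi-likelihood test of edgeR with Benjamini-Hochberg adjustment). The opposite row of CALR had 1387 and 1489.7 CPM after FEBJ, against 2658 and 2388 CPM in DMSO. The opposite row of HYOU1 had 758 and 745 CPM after FEBJ, against 1304 and 1262 CPM in DMSO. CALR and HYOU1 both fell by less than EDEM1. CALR fell 1.75-fold (-0.81 ± 0.06, adjusted p = 8.35e-46) and HYOU1 fell 1.71-fold (-0.77 ± 0.07, adjusted p = 1.50e-26), by the same test. For CALR the 2 DMSO libraries differed by more than counting noise, with a chi-square of 17.5, against 3.47 for the FEBJ libraries. Of all 1443 genes 70.5% were called in this comparison, with 34.7% fallen and 35.8% risen, so a fall of a gene is frequent here. The 95% intervals of the log2 fold changes were -2.91 to -2.22 for EDEM1, -0.91 to -0.70 for CALR and -0.91 to -0.63 for HYOU1, so that the EDEM1 interval lay below the other two.

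After cynaroside EDEM1 and HYOU1 were higher than in DMSO, and CALR did not pass the test. The EDEM1 row had 504 and 458 CPM after cynaroside, against 296 and 327 CPM in DMSO, and its counts were 337 and 900 against 291 and 469. EDEM1 rose 1.53-fold (0.61 ± 0.14, adjusted p = 5.69e-05, quasi-likelihood test of edgeR with Benjamini-Hochberg adjustment). The HYOU1 row had 1803 and 1713 CPM after cynaroside, against 1304 and 1262 CPM in DMSO. By the same test HYOU1 rose 1.37-fold (0.45 ± 0.07, adjusted p = 2.51e-10). With library sizes of the rows as deposited the differences were larger, at 1.07 for EDEM1 and 0.91 for HYOU1. The CALR row had 2276 and 2353 CPM after cynaroside, against 2658 and 2388 CPM in DMSO. All CALR levels lay close together, and the difference did not pass the threshold of 0.05 (-0.12 ± 0.05, 95% interval -0.23 to -0.01, adjusted p = 0.0630). The CALR call depends on the libraries and the scaling. It passed, lower, without FEBJ 1 (adjusted p = 0.0433), FEBJ 2 (0.0485) or DMSO 2 (0.0145), and it was higher, at 0.34 (2.35e-05), when library sizes came from the rows as deposited, all by edgeR's quasi-likelihood test. That scaling moved the median of all genes in this comparison by 0.46 on the log2 scale, which is more than the CALR difference. Of the 1443 genes 41.7% were called after cynaroside, with 20.2% risen and 21.6% fallen, or 739 genes rose and 100 fell with the scaling of the rows as deposited.

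**Figure D1:**
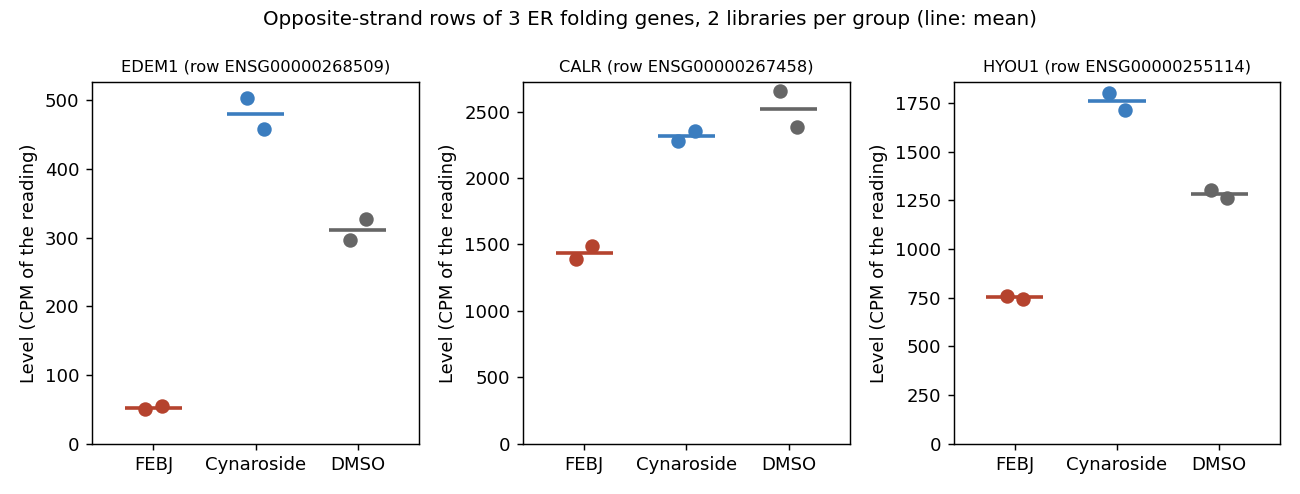
Levels of the opposite rows of EDEM1, CALR and HYOU1 in CPM, on linear axes from 0, with a point per library and a line at the mean of the 2 libraries of FEBJ, cynaroside and DMSO. EDEM1 sits at 51.1 and 54.2 CPM after FEBJ, below every other library, and CALR after cynaroside lies close to CALR in DMSO.

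Set against cynaroside, FEBJ gave lower values for all 3 genes. EDEM1 averaged 52.6 ± 2.17 CPM after FEBJ and 481 ± 32.4 CPM after cynaroside (SD, n = 2 each), and was 9.04-fold lower (-3.18 ± 0.17, adjusted p = 9.70e-72, quasi-likelihood test of edgeR with Benjamini-Hochberg adjustment). HYOU1 averaged 751 ± 8.98 CPM after FEBJ and 1758 ± 63.5 CPM after cynaroside, and was 2.33-fold lower (-1.22 ± 0.07, adjusted p = 1.06e-64). CALR averaged 1439 ± 72.4 CPM after FEBJ and 2315 ± 54.0 CPM after cynaroside, and was 1.61-fold lower (-0.69 ± 0.06, adjusted p = 2.47e-33). In DMSO the means were 312 ± 22.0 CPM for EDEM1, 2523 ± 191 CPM for CALR and 1283 ± 29.4 CPM for HYOU1. Of all genes 69.5% were called, 34.2% lower after FEBJ than after cynaroside and 35.3% higher. The doses are not given, so the extract and the glucoside cannot be matched by dose, and the DMSO libraries are shared by both comparisons with DMSO.

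Per kilobase of row exon the order of the 3 genes was the same in every library. CALR had 5138 and 5517 CPM per kb after FEBJ, 8431 and 8714 after cynaroside and 9843 and 8844 in DMSO. HYOU1 had 1136 and 1117 CPM per kb after FEBJ, 2703 and 2568 after cynaroside and 1955 and 1892 in DMSO. EDEM1, the lowest, had 45.3 and 48.1 CPM per kb after FEBJ, 447 and 406 after cynaroside and 263 and 290.2 in DMSO. The rows face different parts of their genes, so this order is one of rows. Across groups the order differed between genes. EDEM1 and HYOU1 were highest after cynaroside and lowest after FEBJ, whereas CALR was lowest after FEBJ and its cynaroside and DMSO levels did not differ beyond the threshold.

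The genes' own rows, which lie on the strand of the gene, held few counts and did not follow the opposite rows after cynaroside. The own row of CALR had 66 and 56 counts after FEBJ, 60 and 200 after cynaroside and 308 and 401 in DMSO. That of HYOU1 had 10 and 14 counts after FEBJ, 17 and 26 after cynaroside and 77 and 104 in DMSO. That of EDEM1 had 8 and 1 counts after FEBJ, 1 and 11 after cynaroside and 11 and 34 in DMSO. DMSO held the highest own-row counts of CALR and HYOU1, while those of EDEM1 overlapped between cynaroside and DMSO at 11 counts. In the rows as deposited, 12012 were tested and 50.8% called after FEBJ, with 24.8% fallen and 26.0% risen. The own row of CALR fell to 21.1 ± 7.34 CPM after FEBJ, against 103 ± 8.04 CPM in DMSO (-2.32 ± 0.23, adjusted p = 1.40e-09, quasi-likelihood test of edgeR with Benjamini-Hochberg adjustment). The own row of HYOU1 fell to 3.98 and 3.97 CPM after FEBJ, against 27.2 and 25.3 CPM in DMSO (-2.71 ± 0.48, adjusted p = 2.84e-05). That of EDEM1 did not pass the threshold by the same test (-1.90 ± 1.00, adjusted p = 0.116). Without FEBJ 1 its value was -4.25, which rests on 1 own-row count in FEBJ 2. After FEBJ both rows of CALR and of HYOU1 were therefore lower, with larger differences in the own rows.

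After cynaroside the own and opposite rows of HYOU1 moved in opposite directions. The own row of HYOU1 fell to 9.11 ± 3.61 CPM after cynaroside, against 26.2 ± 1.37 CPM in DMSO (-1.61 ± 0.45, adjusted p = 0.00536, quasi-likelihood test of edgeR with Benjamini-Hochberg adjustment), whereas its opposite row rose by 0.45. The HYOU1 own-row call ended without cynaroside 2 (-1.16, adjusted p = 0.0930). CALR's own row fell to 45.8 ± 6.54 CPM after cynaroside, against 103 ± 8.04 CPM in DMSO (-1.14 ± 0.21, adjusted p = 9.38e-05). That of EDEM1 had a log2 fold change of -1.62 ± 0.99 and did not pass the threshold (adjusted p = 0.183), while its opposite row rose. Of the rows as deposited 45.4% were called after cynaroside, with 21.1% fallen and 24.3% risen. Between FEBJ and cynaroside, where 41.9% of rows were called, 20.4% lower and 21.5% higher, the own row of CALR was lower after FEBJ (-1.18 ± 0.25, adjusted p = 0.000264). The own rows of HYOU1 (-1.10 ± 0.53, adjusted p = 0.0940) and EDEM1 (-0.28 ± 1.09, adjusted p = 0.858) did not pass the threshold. The HYOU1 own row did at -1.54 without cynaroside 2 (0.0444) by the same test, and the EDEM1 value was above 0 without FEBJ 2 (0.65) or cynaroside 2 (1.19).

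**Figure D2:**
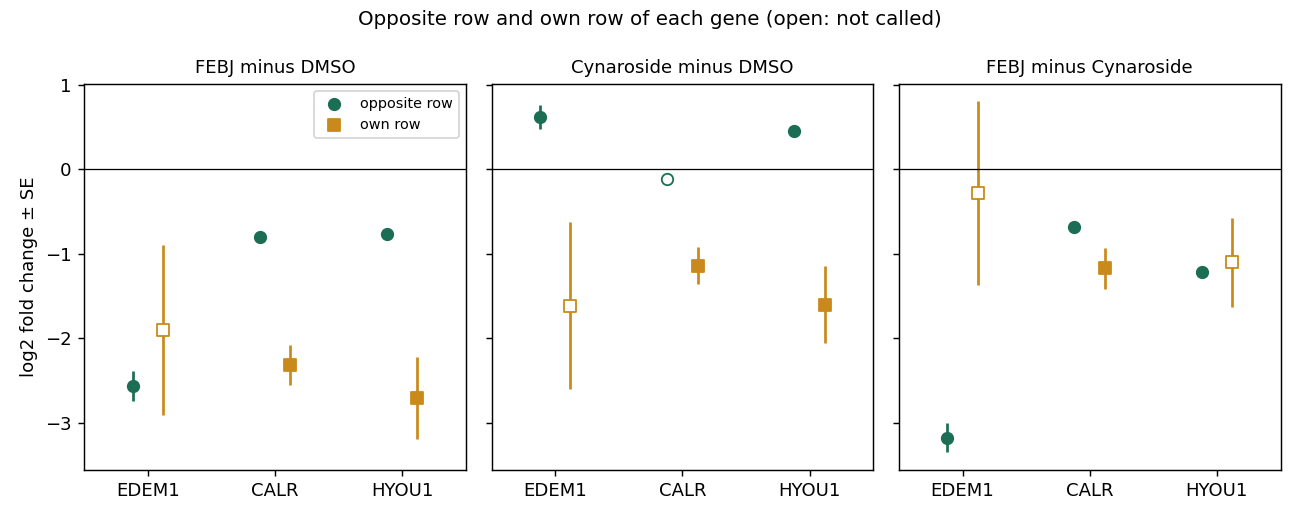
Log2 fold changes ± SE of the opposite row and of the own row of EDEM1, CALR and HYOU1 in each of the 3 comparisons, with open symbols where the adjusted p was over 0.05. After cynaroside the opposite row of HYOU1 lies at 0.45 and its own row at -1.61, and after FEBJ all 6 values are below 0.

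The counts of the own row, as a share of those of the opposite row, were largest in DMSO for CALR and HYOU1. For CALR the share was 4.67 and 2.64% after FEBJ, 3.94 and 4.32% after cynaroside and 11.8 and 11.7% in DMSO. For HYOU1 it was 1.30 and 1.32% after FEBJ, 1.41 and 0.772% after cynaroside and 6.01 and 5.75% in DMSO. For EDEM1, with few own counts, it was 15.4 and 1.30% after FEBJ, 0.297 and 1.22% after cynaroside and 3.78 and 7.25% in DMSO. Over genes at large the share was also highest in DMSO. The median share over 1402 genes was 4.64 and 4.76% after FEBJ, 1.81 and 2.57% after cynaroside and 7.32 and 7.69% in DMSO. The shift between the rows was thus not confined to these 3 genes, and a comparison of an own row between groups carries it.

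**Figure D3:**
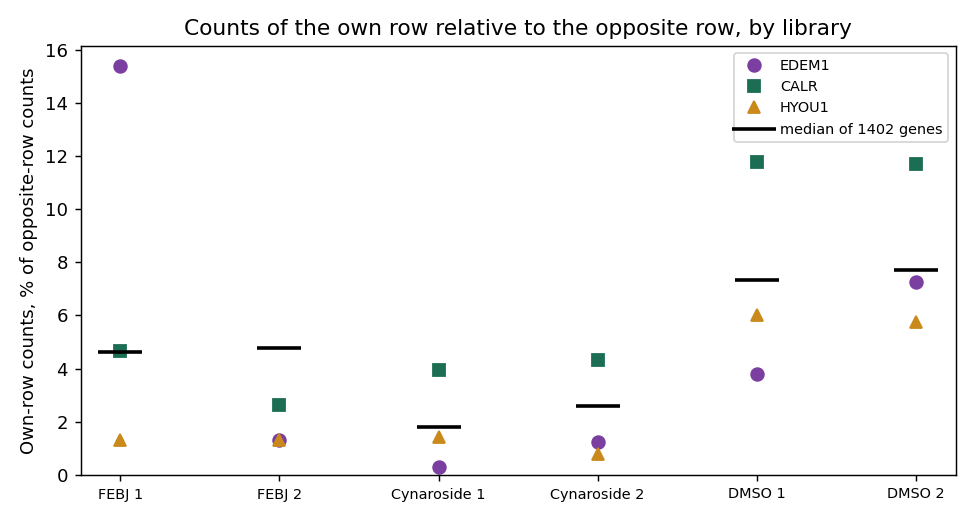
Own-row counts as a percent of opposite-row counts in each library for EDEM1, CALR and HYOU1, with bars at the median of 1402 genes. The DMSO libraries lie highest for CALR, HYOU1 and the median, and the EDEM1 point of FEBJ 1, at 15.4%, rests on 8 own counts.

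The other ER genes were read in the same way. Of the 119 listed genes 19 had an opposite row that was tested, the 3 genes above included. After FEBJ 13 of the 19 fell and 4 rose, beside 34.7 and 35.8% of all genes. The median log2 fold change of the 19 was -0.91, and that of all 1443 genes was 0.05. Cynaroside gave a different count, with 8 of 19 risen and 2 fallen, beside 20.2 and 21.6% of all genes. The median was 0.19, beside -0.01 over all genes. The counts were 17 risen and 0 fallen when library sizes came from the rows as deposited. The number of fallen ER genes after cynaroside moved in both directions when single libraries were left out. Between FEBJ and cynaroside 13 were lower after FEBJ and 4 higher (14 and 2 with the scaling of the deposited rows), beside 34.2 and 35.3% of all genes, with a median of -1.22 beside 0.03. The scaling of the deposited rows also moved called values by more than 1.5 times. It gave 1.12 for MLEC, 0.85 for P4HB, 1.01 for SEC63 and 0.87 for EIF2AK3 after cynaroside, and 0.53 for CNPY2, 0.45 for OS9 and -0.24 for P4HB after FEBJ. The 19 genes are those that happen to have a tested opposite row and do not stand for the listed genes as a whole. For 6 of them, CALR, HYOU1, MLEC, OS9, P4HB and ERO1A, at least 99% of the row's exon bases face the gene. Of these 6, 5 fell and 1 rose after FEBJ, and 4 rose and 0 fell after cynaroside. Among the other 13, 8 fell and 3 rose after FEBJ, and 4 rose and 2 fell after cynaroside. Their rows face the gene with 6.26 to 57.9% of their bases and extend beyond it.

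Among chaperones and lectins, MLEC was closest to EDEM1 in its changes. MLEC, malectin, binds diglucosylated glycans of new glycoproteins. Its opposite row had 677 and 727 CPM after FEBJ, 6063 and 6168 CPM after cynaroside and 3699 and 4003 CPM in DMSO. MLEC fell after FEBJ (-2.45 ± 0.05 against DMSO) and rose after cynaroside (0.67 ± 0.04). SIL1, a nucleotide exchange factor of BiP, had 556 and 682 CPM after FEBJ, 277 and 274 CPM after cynaroside and 261 and 224 CPM in DMSO. It stood out as risen after FEBJ (1.36 ± 0.13), but only 6.26% of its row faces SIL1. CNPY2, a saposin-like ER protein, also rose after FEBJ, with 2139 and 2063 CPM against 1692 and 1678 CPM in DMSO (0.32 ± 0.06).

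Of the 5 tested disulfide and proline isomerases 4 fell and 0 rose after FEBJ, beside 34.7 and 35.8% of all genes. P4HB, protein disulfide isomerase and a subunit of the prolyl hydroxylase of collagen, had 8298 and 8409 CPM after FEBJ, 15204 and 14911 CPM after cynaroside and 11516 and 11351 CPM in DMSO. P4HB fell after FEBJ (-0.45 ± 0.03) and rose after cynaroside (0.40 ± 0.03), in the order of groups seen for HYOU1. ERO1A, the oxidase that recharges disulfide isomerase, had 239 and 230.0 CPM after FEBJ, 1333 and 1423 CPM after cynaroside and 712 and 732 CPM in DMSO. Its groups were wide apart, with a fall after FEBJ (-1.63 ± 0.10) and a rise after cynaroside (0.94 ± 0.09). The prolyl isomerases FKBP14 (-1.83 ± 0.27) and PPIC (-1.34 ± 0.19) fell after FEBJ, and neither was called after cynaroside, at 0.07 ± 0.24 and -0.03 ± 0.18. The thioredoxin-like TXNDC11 was not called after FEBJ (-0.24 ± 0.20). It was called lower after cynaroside (-0.57 ± 0.21), a call that ended without cynaroside 2 (-0.27) or DMSO 2 (-0.16). The TXNDC11 call also ended with DESeq2 (adjusted p = 0.177), with protein-coding rows included (0.0502, edgeR) and with the scaling of the deposited rows (-0.10).

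In ER-associated degradation EDEM1 and DERL1 fell after FEBJ and OS9 and UFD1 rose, where 34.7% of all genes fell and 35.8% rose. DERL1, a part of the channel through which misfolded proteins leave the ER, had 40.3 and 35.2 CPM after FEBJ and 80.3 and 69.7 CPM in DMSO (-0.99 ± 0.29). OS9, a lectin that hands glycoproteins to the ligase complex, had 2415 and 2414 CPM after FEBJ, 1927 and 1915 CPM after cynaroside and 2072 and 2039.8 CPM in DMSO, a small rise after FEBJ (0.23 ± 0.05). UFD1, a cofactor of the extraction ATPase VCP, had 1288 and 1234 CPM after FEBJ, 662 and 781 CPM after cynaroside and 970.3 and 882 CPM in DMSO. It rose after FEBJ (0.45 ± 0.08) and fell after cynaroside (-0.34 ± 0.08), and the call after cynaroside ended without cynaroside 1 (-0.22, adjusted p = 0.0650, edgeR).

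All 3 tested genes of the translocon list fell after FEBJ, as did 34.7% of all genes. SPCS3, a subunit of the signal peptidase, had 33.4 and 55.6 CPM after FEBJ, 283 and 252 CPM after cynaroside and 269.5 and 278 CPM in DMSO (-2.58 ± 0.20 for FEBJ against DMSO). SSR1, a subunit of the translocon-associated complex, fell after FEBJ (-1.56 ± 0.12), as did SEC63, a J-domain partner of BiP at the translocon, with 116 and 104 CPM after FEBJ against 209 and 227 CPM in DMSO. SEC63 rose after cynaroside (0.55 ± 0.16), and SPCS3 (-0.05 ± 0.16) and SSR1 (0.10 ± 0.11) were not called. EIF2AK3, which encodes the stress sensor PERK, was the single tested sensor. It had 205 and 171 CPM after FEBJ, 227 and 241 CPM after cynaroside and 182 and 174 CPM in DMSO. EIF2AK3 was not called after FEBJ (0.08 ± 0.17), and its call after cynaroside (0.41 ± 0.17) ended without cynaroside 2 (0.36), DMSO 1 (0.44) or DMSO 2 (0.37), with DESeq2 (adjusted p = 0.108) and with no filter on low counts (0.0522, edgeR).

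**Figure D4:**
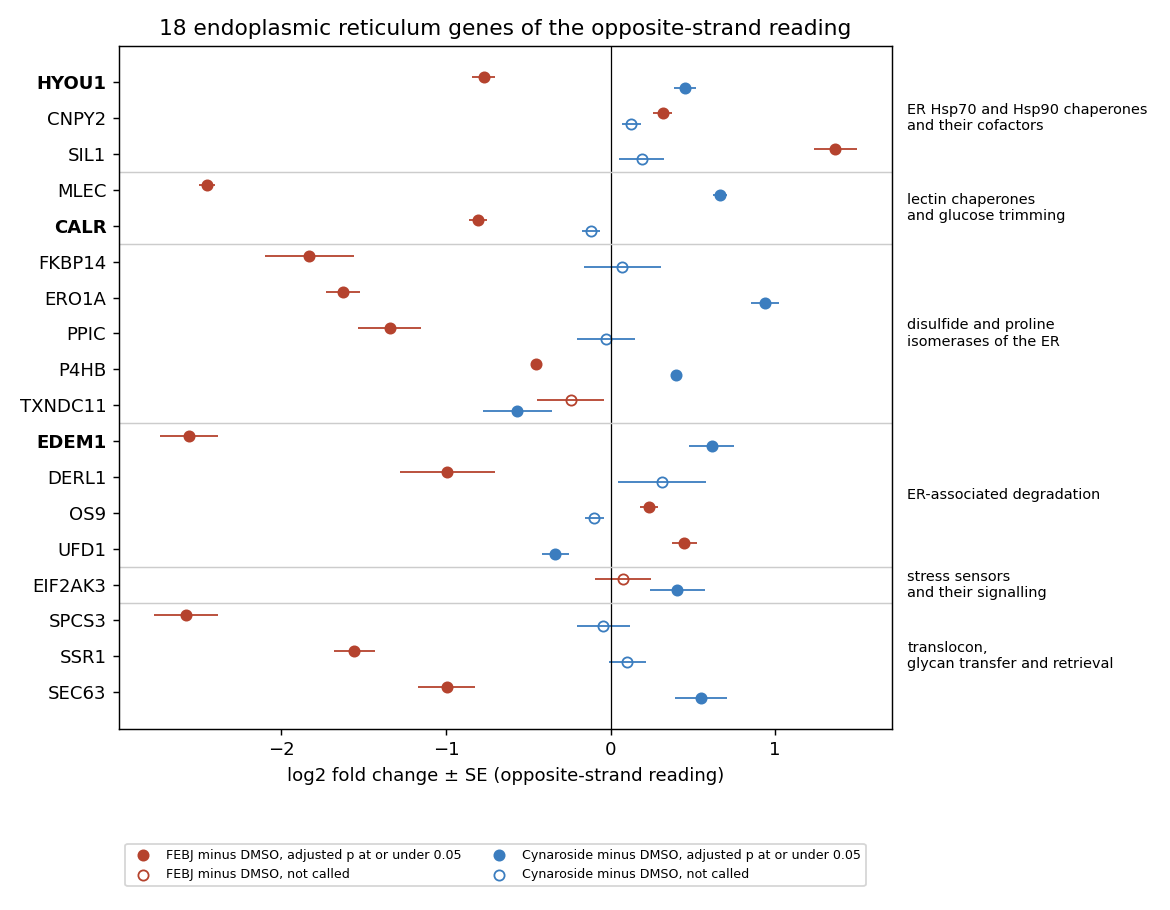
Log2 fold changes ± SE of the ER genes named here in the opposite-strand reading for FEBJ against DMSO and cynaroside against DMSO, with filled points for an adjusted p of 0.05 or less and open points otherwise. For FEBJ most filled points lie below 0, with MLEC at -2.45 and EDEM1 at -2.56, and SIL1, CNPY2, OS9 and UFD1 lie above, while for cynaroside the filled points below 0 are TXNDC11 and UFD1, neither of which was called lower with library sizes of the rows as deposited.

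The genes whose levels were most like those of each gene were found over the 6 libraries among 1089 genes of at least 50 CPM, by the root mean square difference (RMS) of log2(CPM + 1) after each gene's mean was removed. For EDEM1 these included MLEC (RMS 0.0600) and AXL (0.138), a receptor tyrosine kinase. For CALR they were PPP2R1A (0.0398), the scaffold of protein phosphatase 2A, RAB6A (0.0593), a GTPase of the Golgi, and HNRNPM (0.0753), which binds RNA. For HYOU1 they were ATP13A2 (0.0268), a lysosomal polyamine transporter, RAB12 (0.0687), a GTPase of endosomes, and DCTN1 (0.0841), the large subunit of dynactin. MLEC was the only listed ER gene among those named here. The 3 genes were less like each other. CALR and HYOU1 had an RMS of 0.270, EDEM1 and HYOU1 of 0.880, and EDEM1 and CALR of 1.04. Ordered by likeness to EDEM1, HYOU1 ranked 190 and CALR 286 of 1088 genes. The measure describes 6 libraries in 3 groups, and the libraries of a group share their treatment.

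**Figure D5:**
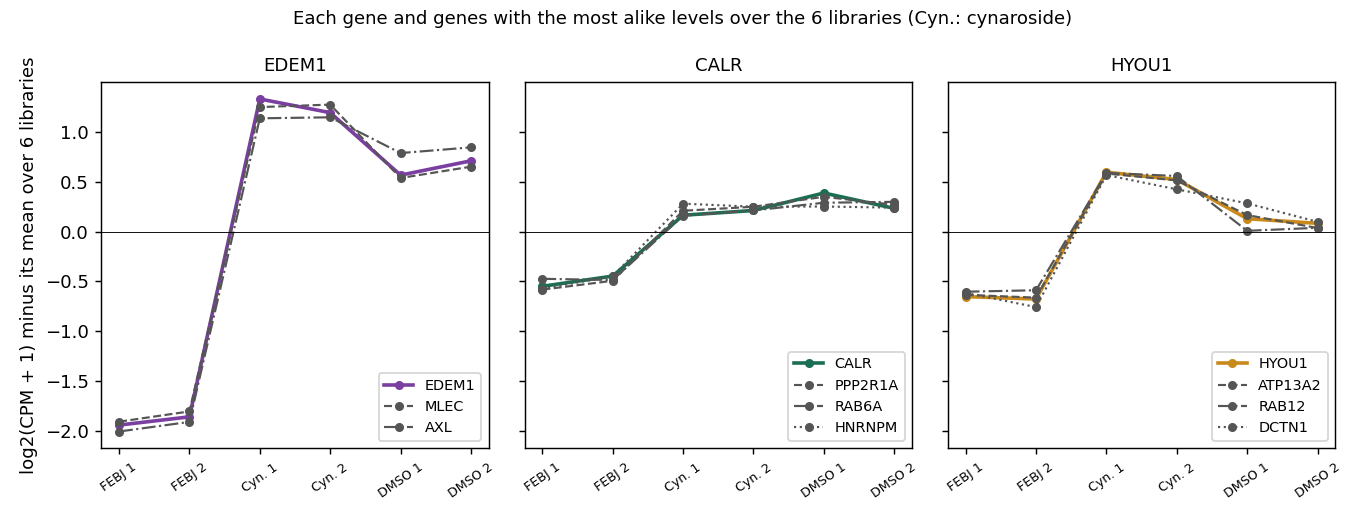
log2(CPM + 1) of the opposite rows minus its mean over the 6 libraries, for EDEM1, CALR and HYOU1 and genes most like each, by library. The lines nearly overlie each other within a panel, at an RMS of 0.0268 to 0.138, and EDEM1 spans a wider range than CALR or HYOU1.

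In the rows as deposited, which hold many more of the ER genes, 97 of 119 were tested. After FEBJ 46 fell (28 without DMSO 2) and 14 rose, where 24.8% of all rows fell and 26.0% rose. Of 3911 protein-coding rows with no exon opposite, 1350 fell and 475 rose. The median log2 fold change of the ER genes was -1.21, beside -0.06 over all rows, -0.31 over all coding rows and -1.02 over coding rows with no exon opposite. After cynaroside 46 fell and 9 rose (4 without DMSO 1), where 21.1% of all rows fell and 24.3% rose, as did 1525 and 338 of the 3911. The median was -1.32, beside 0.02, -0.50 and -1.40 over the same sets of rows. Between FEBJ and cynaroside 20 were higher after FEBJ and 13 lower, where 21.5% of all rows were higher and 20.4% lower, as were 636 and 442 of the 3911. The median was 0.04, beside 0.12, 0.26 and 0.31. The low medians after both treatments thus lay near those of coding rows without an opposite exon. The direction after cynaroside was the reverse of the opposite-strand reading, where 8 of 19 rose and 2 fell.

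The counts by list after FEBJ stand beside 24.8% fallen and 26.0% risen of 12012 rows. Of the 8234 coding rows among them 2223 fell and 1791 rose, and of the 3911 with no exon opposite 1350 and 475. Of 17 tested genes in the list of Hsp70 and Hsp90 chaperones and cofactors 7 fell after FEBJ and 2 rose. That list also holds CRELD1 and SERPINH1. HSPA5, which encodes BiP, the main ER Hsp70, had 3.23 ± 3.45 CPM after FEBJ and 80.2 ± 16.5 CPM in DMSO (-4.48 ± 0.41). HSP90B1, the ER Hsp90, fell too (-1.05 ± 0.18), in a row that faces another coding gene. CRELD1, a membrane protein with EGF-like domains, rose to 203 ± 9.82 CPM after FEBJ, against 18.5 ± 5.74 CPM in DMSO (3.42 ± 0.19). The BiP cofactor SDF2L1 was called higher (1.71 ± 0.69), but not without FEBJ 1 (1.12) or DMSO 2 (1.13). Its call also ended with 2 other scalings, relative log expression (RLE, 1.60) and the upper quartile (1.58), with no filter on low counts (1.65), with a filter of 1 CPM (1.66) and with DESeq2 (1.61). Of 10 lectin chaperones and glucose-trimming genes 8 fell and 0 rose, among them CANX, calnexin, the membrane-bound relative of CALR (-3.10 ± 0.27). The CANX row faces another coding gene. Of 17 isomerases 9 fell and 1 rose. FKBP10, which folds collagen (-3.69 ± 0.51), and P4HB (-1.35 ± 0.19) fell. The opposite row of P4HB held many more counts than its own row, and fell by less (-0.45 ± 0.03). FKBP7, with 3 counts in DMSO, was 6.90-fold higher as a ratio of counts (95% exact binomial interval 2.01 to 36.6), and its call ended without any single library but DMSO 2 and cynaroside 1. It ended under the same 5 other settings as that of SDF2L1, at 2.62 to 2.77 on the log2 scale. The FKBP7 row, at 3.01 ± 0.245 CPM after FEBJ, passed the filter on low counts only through cynaroside (7.21 ± 0.496 CPM). It was therefore not tested in the fit of only FEBJ and DMSO.

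Of 19 tested genes of ER-associated degradation 6 fell and 4 rose after FEBJ. VCP, the ATPase that extracts proteins from the membrane, fell (-3.91 ± 0.66), and the ubiquitin-conjugating enzyme UBE2J1, with 2 counts after FEBJ, was 47.8-fold lower by the ratio of its counts (95% interval 12.9 to 399.98). DERL2, a relative of DERL1 (1.81 ± 0.20), and AUP1, a lipid droplet and ER protein (2.02 ± 0.37), rose, and each of these rows faces another coding gene. Of 15 stress sensors and signalling genes 6 fell and 5 rose. CHAC1, a glutathione-degrading enzyme induced through ATF4, had 14.2 ± 2.43 CPM after FEBJ and 0.597 ± 0.156 CPM in DMSO (4.51 ± 0.90, 95% interval 2.66 to 6.36). Its row was near the floor in DMSO and after cynaroside (0.252 ± 0.356 CPM). It passed the filter on low counts only through FEBJ, so the size of its fold change is uncertain. WFS1, wolframin, also rose (1.39 ± 0.26). CREB3L1, a membrane-bound factor for collagen genes, fell (-4.07 ± 0.52), and ATF6B, with 3 counts after FEBJ, was 22.9-fold lower (interval 7.56 to 113). Of 20 translocon genes 11 fell and 2 rose. STT3B, a catalytic subunit of oligosaccharyltransferase, fell (-3.51 ± 0.71), and DDOST of the same complex, with 3 counts after FEBJ, was 58.6-fold lower (interval 19.8 to 286). SEC61A1, the channel subunit, rose (1.17 ± 0.26) in a row that faces another coding gene. SPCS1 was called higher (0.38 ± 0.12), a call that ended without FEBJ 1 (0.35), FEBJ 2 (0.40), DMSO 1 (0.45) or DMSO 2 (0.28), with no filter (0.32) and with a filter of 1 CPM (0.33). The SPCS1 row faces other coding genes.

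The counts by list after cynaroside stand beside 21.1% fallen and 24.3% risen of all rows. Of the 8234 coding rows 2346 fell and 1506 rose, and of the 3911 with no exon opposite 1525 and 338. Of the chaperone and cofactor list 8 fell and 2 rose, with HSPA5 at 4.76 ± 1.03 CPM after cynaroside and 80.2 ± 16.5 CPM in DMSO (-4.14 ± 0.41). SERPINH1, the collagen chaperone HSP47, fell (-3.62 ± 0.75), in a row at 0 CPM in cynaroside 1 and at 3.02 CPM in cynaroside 2. The SERPINH1 value was -9.19 without cynaroside 2, and its call ended with DESeq2 (adjusted p = 0.171). CRELD1 rose (1.85 ± 0.20). SIL1 was called higher (1.36 ± 0.48), but not without cynaroside 1 (1.23), DMSO 1 (1.34) or DMSO 2 (1.36), nor with no filter (1.33). Of the lectin and trimming list 9 fell and 0 rose, among them CANX (-2.14 ± 0.26) and GANAB, the catalytic subunit of glucosidase II (-2.42 ± 0.37, and -3.69 without cynaroside 2). Of the isomerases 7 fell and 2 rose, with P4HB at -1.73 ± 0.20, PDIA3, the partner of CALR and CANX, at -1.32 ± 0.29, and ERP44, which retrieves proteins from the Golgi, at 1.53 ± 0.49. The opposite row of P4HB, which held many more counts than its own row, rose (0.40 ± 0.03). The ERP44 call ended without DMSO 2 (1.29). FKBP7 was 17.1-fold higher as a ratio of counts (interval 5.43 to 86.2), a call that ended without cynaroside 2 or DMSO 1.

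Of the degradation list 5 fell and 3 rose after cynaroside, with OS9 at -2.21 ± 0.40 and VCP at -3.17 ± 0.62. The VCP row was at 0 CPM in cynaroside 1, and its value was -9.20 without cynaroside 2. The ubiquitin ligase SYVN1 was called higher (0.57 ± 0.14), but not without DMSO 1 (0.46), and UFD1 was called higher (1.24 ± 0.33), but not without cynaroside 1 (0.64). The opposite row of UFD1 moved the other way (-0.34 ± 0.08). Of the sensors and their signalling 5 fell and 0 rose. CREB3L1 fell (-2.77 ± 0.47), and PPP1R15A, the phosphatase subunit that restores translation, had 2 counts after cynaroside and was 33.2-fold lower (interval 8.91 to 279). Of the translocon list 13 fell and 2 rose, among them RPN1 (-3.41 ± 0.50) and DDOST (-3.84 ± 0.63) of oligosaccharyltransferase, while SEC61A2 rose (0.99 ± 0.12). DDOST, also at 0 CPM in cynaroside 1, was at -9.41 without cynaroside 2. SSR4 was called higher (0.46 ± 0.16), but not without DMSO 1 (0.28). Its call also ended with RLE (0.31) or upper-quartile scaling (0.26), with no filter (0.43), with DESeq2 (0.32) and in a fit of only the 4 libraries compared (0.30). The rows of SIL1, P4HB, UFD1 and OS9 have antisense rows on the other strand, and those of SYVN1, SEC61A2, SSR4, PDIA3 and CANX face coding genes, so their counts are uncertain. After cynaroside the antisense rows of SIL1 (0.19 ± 0.14) and OS9 (-0.10 ± 0.05) were not called. Coding rows with no exon opposite are not thereby certain, since 1525 of 3911 fell after cynaroside and 338 rose.

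Where FEBJ and cynaroside differed in the deposited rows, the largest ratio by rule was that of PPP1R15A, with 244 counts after FEBJ and 2 after cynaroside (109.6-fold higher, interval 30.0 to 910.04). CRELD1 (1.57 ± 0.17), WFS1 (2.08 ± 0.28), AUP1 (2.76 ± 0.41), DERL2 (1.26 ± 0.20), SEC61A1 (1.61 ± 0.27) and RPN1 (2.49 ± 0.52) were also higher after FEBJ. SIL1 (-2.85 ± 0.54), ERP44 (-2.86 ± 0.55), SEC61A2 (-0.75 ± 0.12) and SSR4 (-1.01 ± 0.16) were lower after FEBJ, as was CALR. The calls of SDF2L1, LMAN2, CANX, TMX2, PDIA4, HERPUD2 and PPP1R15B in this comparison ended when single libraries were left out. Those of LMAN2 (1.16) and TMX2 (5.58) also ended with no filter and that of CANX (-0.96) in a fit of the 4 libraries compared. For SIL1 the own row was lower after FEBJ than after cynaroside while its opposite row was higher (1.18 ± 0.13).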

How the data were processed

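The authors deposited 6 tables of raw counts per gene, made with CASAVA 1.7, HISAT2, HTSeq 0.12.4 and DESeq2 1.38.0 on hg19, per the submitters' processing notes. Kit, strand setting and annotation release are not given in the sources used here. Each table held 62754 gene rows and 5 HTSeq summary rows, which entered neither library sizes nor tests. The summary row of reads in no feature held 87.4 to 88.3% of the total, and depth was 1599000 to 4709317 gene-row counts.

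Opposite exons came from GENCODE 29 on GRCh38, joined by Ensembl identifier and not reconciled with hg19. The opposite-strand reading summed 1828 non-coding rows that face a single gene, a protein-coding one, by 50 bp or more and hold at least as many counts as its own row (1699 genes). EDEM1, CALR and HYOU1 each had 1 such row, and the same row without the condition on counts. Both readings were tested with edgeR 4.0.16 (R 4.3.3) in a model of 3 group means over 6 libraries, with filterByExpr, TMM and Benjamini-Hochberg adjustment over all tested genes at a threshold of 0.05, and the fit was tested on simulated data. Errors of log2 fold changes are standard errors, and those of CPM are SD (n = 2). Where a group held 1 to 3 counts, the ratio of counts has an exact binomial interval, which covers counting error only.

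The genes, the lists and the opposite-strand reading were chosen with earlier results of these data known. Named were EDEM1, CALR and HYOU1, the other listed ER genes of the opposite-strand reading, the members of each list with the smallest p in the deposited rows (up to 2 risen and 2 fallen in a comparison) and the 3 most alike genes. Some of the genes so chosen are not reported here. The alternatives tried were scaling by RLE or upper quartile, no filter, 1 CPM in 2 libraries, DESeq2 1.42.0, a replicate block, only the 4 libraries compared, each library left out, the scaling of the deposited rows, all non-coding rows, protein-coding rows included, and an overlap of 200 bp.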

Additional observations from a re-analysis of the deposited data

How the results depend on the processing

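The falls of EDEM1, CALR and HYOU1 after FEBJ, against DMSO and against cynaroside, and the rises of EDEM1 and HYOU1 after cynaroside kept direction and call under all 17 alternatives in the opposite-strand reading. The settings of all non-coding rows, protein-coding rows included and a 200 bp overlap read these genes from the same rows. The counts of the genes could thus not change there, only the scaling and the pooled spread. Against DMSO, FEBJ gave -2.66 to -2.35 for EDEM1, -0.90 to -0.59 for CALR and -0.87 to -0.56 for HYOU1. Cynaroside gave 0.54 to 1.07 for EDEM1 and 0.42 to 0.91 for HYOU1, highest with the library sizes of the deposited rows. CALR after cynaroside was called in 3 of 6 fits without 1 library, in a range of -0.20 to -0.045, and was reversed to 0.34 with the library sizes of the deposited rows. That scaling also reversed PPIC (0.44), SPCS3 (0.42), OS9 (0.36) and UFD1 (0.13) after cynaroside and CNPY2 between FEBJ and cynaroside (-0.052), and gave 739 risen and 100 fallen genes after cynaroside. Its calls were 88.1% higher, against 48.3% with the reading's own library sizes, and for FEBJ against DMSO 59.4% against 50.8%. It moved the medians by 0.21, 0.46 and -0.25 in the 3 comparisons, FEBJ against cynaroside last. With protein-coding rows included, more genes were tested, and 807 rose and 785 fell after FEBJ, 498 and 520 after cynaroside, and 792 and 784 were higher and lower after FEBJ than after cynaroside. EIF2AK3 after FEBJ (-0.018) and PPIC after cynaroside (0.000448) then changed sign. Without 1 library, uncalled values changed sign for EIF2AK3 (range -0.069 to 0.21) and TXNDC11 (-0.54 to 0.15) after FEBJ and for PPIC (-0.26 to 0.28), FKBP14 (-0.12 to 0.22) and SPCS3 (-0.092 to 0.046) after cynaroside. Own rows had few counts. Without 1 library, EDEM1 ran from -4.25 to -0.97 after FEBJ and from -2.64 to 1.19 between FEBJ and cynaroside, with 0.65 and 1.19 the reversed values, and HYOU1 from -1.97 to -1.16 after cynaroside and from -1.54 to -0.78 between FEBJ and cynaroside. Fallen deposited rows after cynaroside numbered 1543 to 2649 when 1 library was left out, with the lowest counts without either DMSO library. The cause of these changes was not tested.

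Libraries of different groups share replicate numbers. Correlations of their deviations were -0.06 to 0.12, so no strong shift shared by number was seen. These values cannot show whether libraries of the same number were handled together. With a replicate block, EDEM1 was -2.56, CALR -0.81 and HYOU1 -0.77 after FEBJ, and no call of these 3 genes changed in either reading. Among the other named genes, the deposited-row calls of FKBP7 after FEBJ (2.84, adjusted p = 0.0818) and TMX2 between FEBJ and cynaroside (5.61, adjusted p = 0.0820) ended with the block by edgeR's quasi-likelihood test. The 2 libraries of a group differed by more than counting noise, with a mean chi-square of 2.89 to 3.01 per gene.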
